A study of Mus musculus with 12 samples.

Results

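Chemokine ligands are small secreted or membrane-bound proteins that direct the movement of cells, and 10 of them were followed here in muscle and brain: Cxcl1, Cxcl10, Cxcl12, Cxcl13, Cxcl14, Cxcl16, Cx3cl1, Ccl2, Ccl7 and Ccl11. They were chosen by name, and all 10 symbols matched a single gene identifier among the 55416 in the tables. RNA sequencing covered 12 libraries from 6 male BALB/c mice, labelled as 7 weeks old. In 3 cachectic mice the tumour came from CT-26, an established line of murine colon carcinoma, injected under the abdominal skin, and the 3 normal mice had received no tumour. The labels describe no sham injection of the controls. Per the labels' protocols, body weight of tumour-bearing mice was 7 to 10% lower by day 10, and their tissue was taken on day 25. A collection day was noted for the CT-26 libraries only. Each mouse gave a gastrocnemius, a calf muscle, and a hypothalamus, the brain region that governs feeding and energy balance, so there were 4 groups of 3 and replicates were separate mice. The groups are called CT-26 and control below.

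Chemokines signal through receptors that span the membrane and couple to G proteins, and they are held in place by heparan sulphate on cell surfaces. Atypical receptors bind them without that signalling and clear or transport them. The families are named for the spacing of the first cysteines of the mature protein. Some members are made constantly and position resident cells, as Cxcl12 does through Cxcr4, and others are induced by inflammatory cytokines and draw neutrophils or monocytes out of blood. In brain, Cx3cl1 is a neuronal ligand whose receptor Cx3cr1 is carried by microglia.

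The coding sequence around those cysteines shows which family each member belongs to, and 6 members on which the results turn are given, 5′ to 3′ on the coding strand, with both cysteine codons in capitals. They were read from the GENCODE M21 transcripts of build GRCm38.
Cxcl1: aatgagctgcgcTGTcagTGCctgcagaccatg
Cxcl12: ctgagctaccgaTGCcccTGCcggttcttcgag
Cxcl13: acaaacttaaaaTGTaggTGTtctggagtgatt
Cxcl14: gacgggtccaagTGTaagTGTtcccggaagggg
Ccl11: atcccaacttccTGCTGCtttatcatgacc
Cx3cl1: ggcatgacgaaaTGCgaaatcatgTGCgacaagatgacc

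The 4 CXC sequences had 1 codon between the cysteine codons, the CC sequence of Ccl11 had 0, and that of Cx3cl1 had 3. Cxcl10 and Cxcl16 shared the CXC spacing, and Ccl2 and Ccl7 the CC spacing. The stretches of Cxcl1 (chr5:90891484-90891516), Cxcl12 (chr6:117171496-117171528), Cxcl13 (chr5:95958652-95958684), Ccl11 (chr11:82061684-82061713) and Cx3cl1 (chr8:94778039-94778077) lay in exon 2 on the plus strand. The stretch of Cxcl14 ran from exon 1 into exon 2 on the minus strand (chr13:56295903-56296113, intron included). Coding length also separated the members: Cx3cl1 had 1188 coding bases and Cxcl16 had 741, and the other 8 had 291 to 447. Cx3cl1 and Cxcl16 are the membrane-anchored chemokines, with a stalk and a transmembrane segment that the others lack.

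Genome position grouped some members. Ccl2 (chr11:82035571-82037453), Ccl7 (chr11:82045712-82047525) and Ccl11 (chr11:82057823-82062955) lay one after another on the plus strand of GRCm38. Cxcl1 (chr5:90891241-90893115), Cxcl10 (chr5:92346638-92348889) and Cxcl13 (chr5:95956951-95961068) were on chromosome 5. Cxcl12 was at chr6:117168535-117181367, Cxcl14 at chr13:56288643-56296551, Cxcl16 at chr11:70453983-70459984 and Cx3cl1 at chr8:94772009-94782427.

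Gastrocnemius libraries held 26015741 to 42771331 expected counts and hypothalamus libraries 27195316 to 52535761. Markers matched the labelled tissues: 5 muscle fibre genes summed to 60120 to 147200 normalised counts per 1e6 (CPM) in gastrocnemius and to 18.1 to 40.6 CPM in hypothalamus, and 5 neuron genes to 1.27 to 3.62 and 3120 to 3380 CPM. The muscle fibre sum was lower in every CT-26 gastrocnemius (60120 to 108000 CPM) than in any control (111900 to 147200 CPM), with 1 of the 5 genes called lower, and its part in the muscle results was not tested. The 8 neutrophil markers stood apart by condition. Their sum was 21.8 to 146.1 CPM in CT-26 gastrocnemius against 0.511 to 0.889 CPM in control gastrocnemius, and 13.1 to 99.1 against 4.41 to 5.77 CPM in hypothalamus. CT-26 mouse 1 had the highest neutrophil sum in each tissue. The 7 fibroblast markers summed to 341.8 to 456.0 CPM in CT-26 gastrocnemius and 901.4 to 1452 CPM in control gastrocnemius. Within that sum, Col1a1 averaged 22.0 CPM in CT-26 and 372.8 CPM in controls, Col3a1 32.5 and 247.8 CPM, and Pdgfra 16.0 and 16.2 CPM. In hypothalamus, meningeal markers summed to 85.9 CPM in CT-26 mouse 2 and to 28.5 to 44.8 CPM in the other 5 libraries.

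In control muscle the leading ligand transcript was Cxcl14, and in hypothalamus it was Cx3cl1. Levels between genes are compared in transcripts per 1e6 (TPM), a unit that allows for transcript length. Cxcl14 took 38.5 to 44.1% of the summed TPM of the 10 ligands in control gastrocnemius, and Ccl11 and Cxcl12 came next in each of those libraries. Cx3cl1 took 66.0 to 70.9% in the 6 hypothalamus libraries, Cxcl14 22.0 to 24.1%, and Cxcl12 came next in every one. CT-26 mouse 1 was the library in which Cxcl13 led in gastrocnemius, with 49.0% of the ligand TPM. The summed ligand TPM was 114.6 to 184.2 in CT-26 gastrocnemius and 72.6 to 87.6 in control gastrocnemius, groups that did not overlap. In hypothalamus the sum was 128.7 to 146.0 in CT-26 mice and 139.8 to 149.3 in controls.

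**Figure D1:**
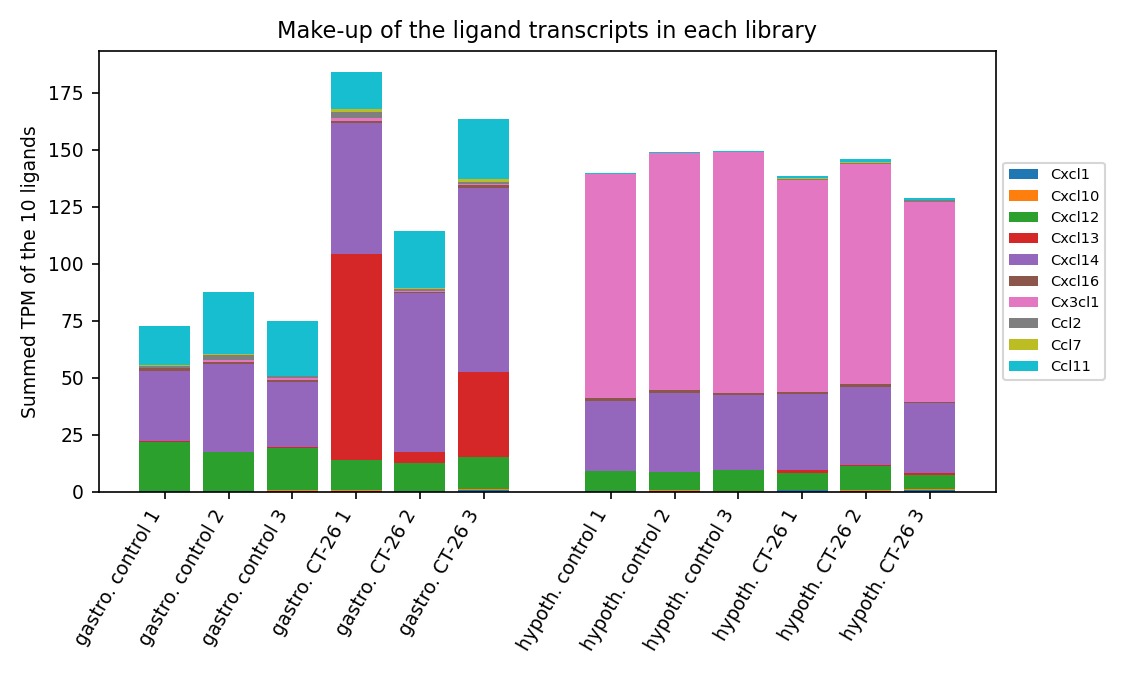
Summed TPM of the 10 ligands in each of the 12 libraries, split by ligand; bars are single libraries and the number is the mouse. Cxcl14, Ccl11 and Cxcl12 make up most of each control gastrocnemius bar, Cxcl13 adds up to 49.0% in CT-26 gastrocnemius, and Cx3cl1 makes up 66.0 to 70.9% of each hypothalamus bar.

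Between control tissues, Cx3cl1 was 168-fold higher in hypothalamus by mean TPM (102.8 ± 3.95 against 0.613 ± 0.240 TPM, SD, n = 3 each). Ccl11, the eosinophil chemoattractant eotaxin, went the other way, 107.6-fold higher in gastrocnemius (22.6 ± 5.18 against 0.210 ± 0.020 TPM, SD, n = 3 each). Ccl2 was 17.1-fold and Cxcl12 2.19-fold higher in gastrocnemius, and Cxcl14 was at 32.7 and 32.9 TPM. TPM between tissues carries a limit here: genes with a mean effective length under 50 bases took 29.4 to 34.3% of TPM in hypothalamus and 4.93 to 9.30% in gastrocnemius. With those genes removed and TPM rescaled, the ratios were 219.8 for Cx3cl1, 82.1 for Ccl11, 13.0 for Ccl2 and 1.67 for Cxcl12.

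**Figure D2:**
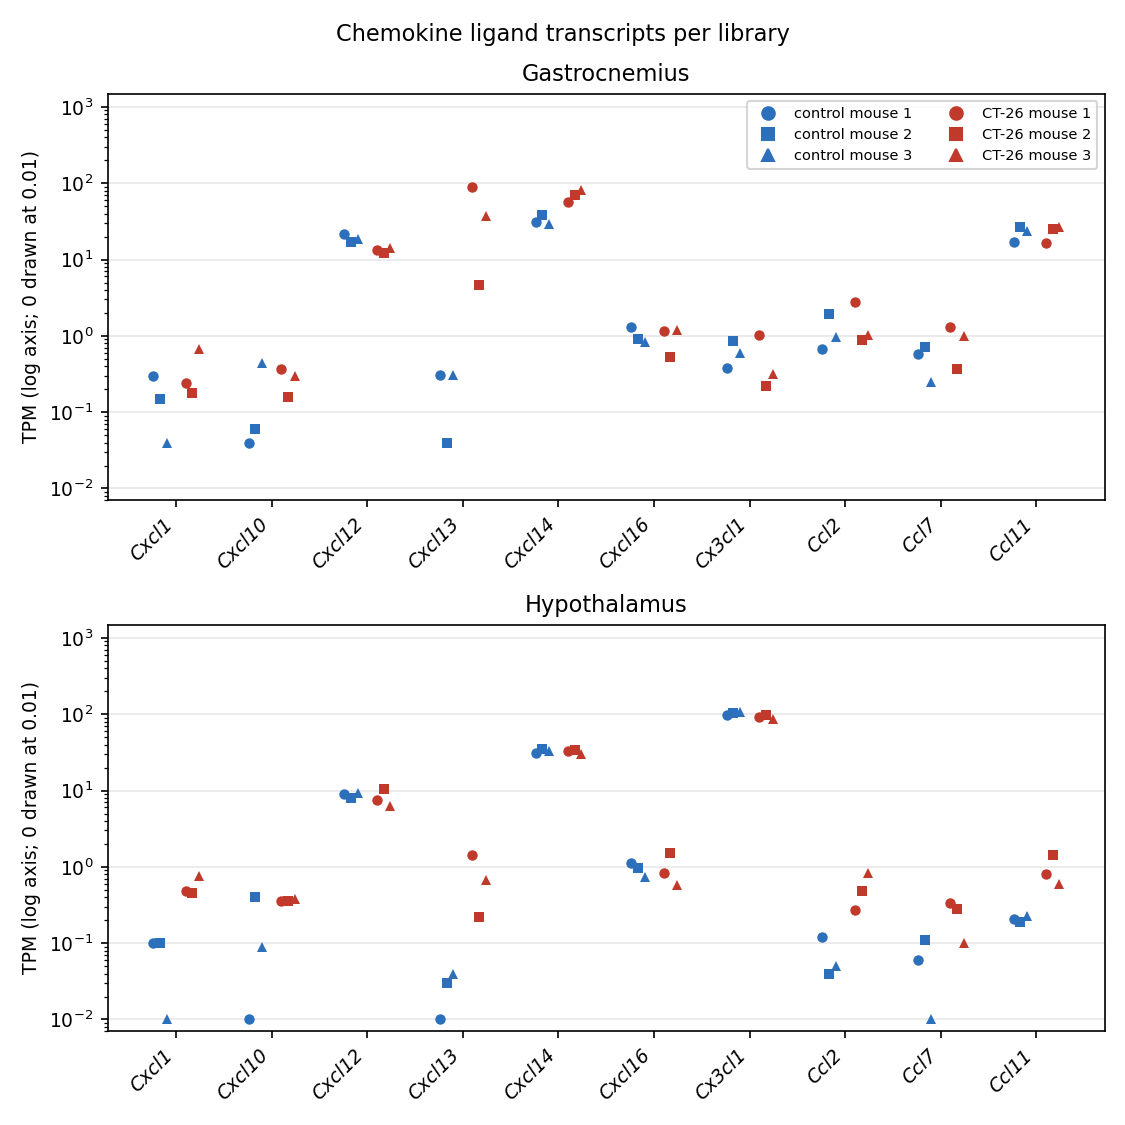
TPM of each ligand (log axis, 0 drawn at 0.01) in gastrocnemius (top) and hypothalamus (bottom); each point is a library, colour gives the condition and shape the mouse. The 3 CT-26 points of Cxcl13 in gastrocnemius, 4.58 to 90.2 TPM, all lie above its controls, while Ccl11 overlaps in gastrocnemius and separates in hypothalamus.

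The first comparison asked which ligands differed between CT-26 and control gastrocnemius. Cxcl13 and Cxcl14 were higher, Cxcl12 was lower, and 5 further members that could be tested were not called. Calls are those of edgeR's quasi-likelihood test, with Benjamini-Hochberg adjustment over all genes tested and a threshold of 0.05, and every adjusted p below is of this kind unless another tool is named. Of the 10 members, 8 passed the minimum count, and Cxcl1 and Cxcl10 did not. The count of 2 higher and 1 lower among 8 stood beside a background of 19.6% of 14265 genes higher and 18.3% lower, so the shares of the members were near those of all genes. Of the 2 higher, Cxcl13 was tested only because of its CT-26 libraries. That split of 2801 higher and 2616 lower genes depends on the scaling: it was 3957 and 1662 with library totals and 4473 and 1018 with limma on log2(TPM + 0.5), where the median of all genes moved to 0.20 and 0.28 (log2). The same 3 members were called with the same signs under both. The median log2 fold change of the 8 was -0.19, and that of all genes tested was -0.0015. In whole tissue, a change in the number of cells that make a transcript cannot be told apart from a change in the amount per cell, and this holds for all results below.

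Cxcl13 is the B-cell chemoattractant of lymphoid follicles and the ligand of Cxcr5. Its gastrocnemius level was 90.2, 4.58 and 37.2 TPM in CT-26 mice 1, 2 and 3 and 0.31, 0.04 and 0.31 TPM in control mice 1, 2 and 3. The corresponding expected counts were 2908, 99 and 1043 against 8, 1 and 10. All CT-26 libraries were above all controls, and within the CT-26 group the highest and lowest mice lay far apart. The log2 fold change was 7.12 ± 1.13 (SE; 139-fold; adjusted p = 0.0023). With 1 to 10 counts, the controls were too low to pass the filter by themselves, so a gene kept by its CT-26 libraries had to differ. With each library left out in turn, the log2 fold change ran from 6.23 to 7.63. No single library ended the call, but those fits used the same filter, so that is not read as support. The order of the CT-26 mice for Cxcl13 was 1 then 3 then 2. In mice 1, 2 and 3 the neutrophil sum was 146.1, 28.3 and 21.8 CPM, and the macrophage and monocyte sum 132.6, 53.0 and 153.1 CPM. Mouse 1 was the highest for Cxcl13 and the neutrophil sum, and mouse 2 the lowest for Cxcl13 and the macrophage sum. Lymphocyte markers were near 0: 7 genes summed to 0.149 to 0.360 CPM in CT-26 and 0.110 to 0.711 CPM in control gastrocnemius, and Cd3g, Cd8a and Ms4a1 had under 3 counts in each gastrocnemius library. The part of neutrophils, macrophages, lymphocytes or any other cell type in the Cxcl13 result was not tested.

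Cxcl14, a ligand made by epithelium and muscle whose receptor is not settled, was the most abundant member in this tissue. It was at 57.4, 70.0 and 81.1 TPM in CT-26 mice and 30.7, 38.6 and 28.8 TPM in controls, so the groups did not overlap. The log2 fold change was 0.76 ± 0.21 (SE; 1.69-fold; adjusted p = 0.021). This call rested on several libraries: the adjusted p was 0.053 without CT-26 mouse 3, 0.083 without control mouse 1 and 0.066 without control mouse 3.

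Cxcl12, the Cxcr4 ligand that retains haematopoietic and progenitor cells in their niches, was lower. It was at 13.4, 12.4 and 14.2 TPM in CT-26 mice and 21.4, 17.2 and 18.7 TPM in controls. The groups did not overlap, and the normalised counts were 29.3 ± 2.60 against 59.7 ± 9.35 CPM (SD, n = 3 each). The log2 fold change was -1.02 ± 0.15 (SE; 2.03-fold lower; adjusted p = 0.0015), and it was -0.50 (limma adjusted p = 0.036) on log2(TPM + 0.5). Of the 7 fibroblast markers 6 were called lower, beside 18.3% of all genes. Pdgfra was not (log2 fold change -0.02 ± 0.14, SE; adjusted p = 0.93). The part of fibroblasts in the Cxcl12 result was not tested.

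The CC members recruit monocytes, through Ccr2 for Ccl2 and Ccl7, and eosinophils, through Ccr3 for Ccl11. Ccl11 was at 16.4, 25.3 and 26.7 TPM in CT-26 gastrocnemius and 16.9, 27.0 and 23.9 TPM in controls, which overlapped (log2 fold change -0.36 ± 0.29, SE; adjusted p = 0.36). Ccl2 was at 2.80, 0.88 and 1.04 TPM against 0.68, 1.95 and 0.96 TPM, and its log2 fold change was -0.02 ± 0.49 (SE; adjusted p = 0.98). Ccl7 had 26, 5 and 17 counts against 9, 12 and 5 (log2 fold change 0.46 ± 0.48, SE; adjusted p = 0.49). With standard errors near 0.5, a log2 change of 0.76, as seen for Cxcl14, would have been under 2 standard errors for either gene.

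The membrane-anchored members were low in muscle. Cxcl16, the ligand of Cxcr6 and a scavenger receptor for oxidised lipoprotein, was at 0.53 to 1.20 TPM in CT-26 and 0.83 to 1.32 TPM in control libraries (log2 fold change -0.49 ± 0.28, SE; adjusted p = 0.21). In CPM its groups did not overlap, at 0.774 to 1.41 against 1.47 to 1.94, and 552 of its 3021 exonic bases are shared with Zmynd15 on the opposite strand. Cx3cl1 was at 1.04, 0.22 and 0.32 TPM against 0.38, 0.86 and 0.60 TPM (log2 fold change -0.44 ± 0.48, SE; adjusted p = 0.50). CT-26 mouse 1 was the high library for Cx3cl1. Without it the log2 fold change was -1.24 and the gene was called lower (adjusted p = 0.046).

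Cxcl1, the neutrophil attractant that acts through Cxcr2, and Cxcl10, the interferon-induced ligand of Cxcr3, were below the testing minimum in gastrocnemius but not below detection, which was set as under 10 counts in every library of a tissue. Cxcl1 had 7, 3 and 17 counts in CT-26 and 6, 4 and 1 in control libraries. Cxcl10 had 12, 4 and 8 against 2, 2 and 5. Both overlapped in CPM, and neither was called when all genes with counts were tested (adjusted p = 0.42 and 0.31). Cxcl10 shares 133 exonic bases with Art3 on the opposite strand, a gene at a mean of 8711 counts in CT-26 and 2273 in control gastrocnemius, and the strand setting of the counting is not given in the sources used here, so its counts are uncertain.

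**Figure D3:**
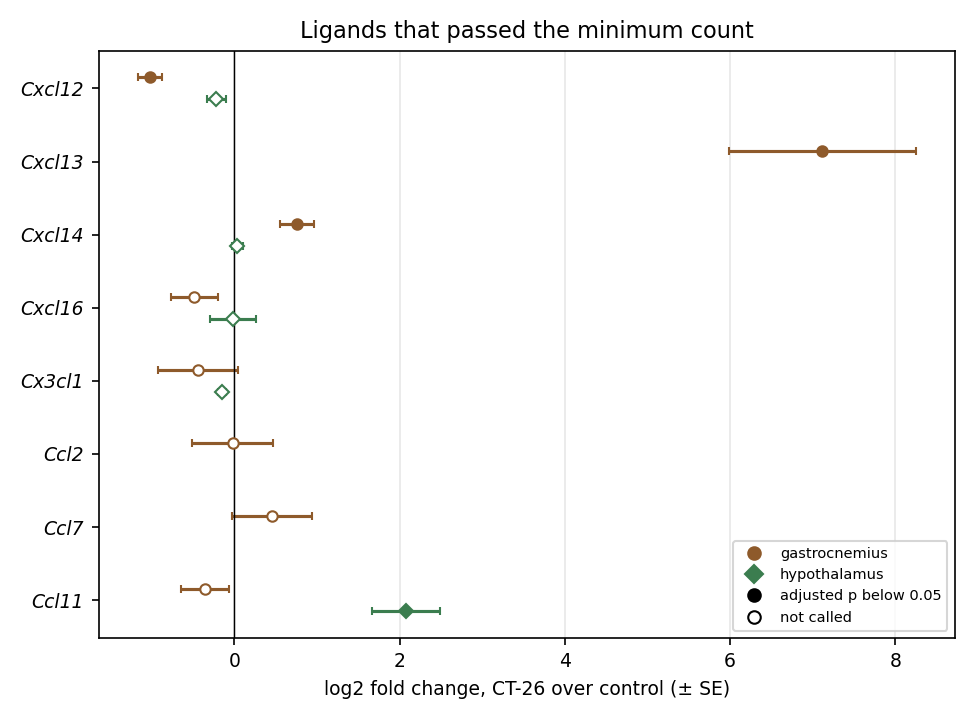
Log2 fold change of CT-26 over control with its standard error for each ligand that passed the minimum count, in gastrocnemius (circles, 8 ligands) and hypothalamus (diamonds, 5 ligands); filled symbols are called at an adjusted p below 0.05. Cxcl13 at 7.12 and Ccl11 in hypothalamus at 2.08 are the farthest from 0.

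The second comparison asked the same of the hypothalamus, where Ccl11 was the called member and was higher in CT-26 mice. Here 5 members passed the minimum count: Cxcl12, Cxcl14, Cxcl16, Cx3cl1 and Ccl11. The count of 1 higher and 0 lower among 5 stood beside a background of 3.94% of 17961 genes higher and 4.83% lower. The 1 higher, Ccl11, reached the minimum count only through its CT-26 libraries, so nothing is read from that share. By edgeR, 1 of the 5, Cx3cl1, was lower at an unadjusted p below 0.05, and DESeq2 called 0 of the 5. The median log2 fold change of the 5 was -0.02, beside -0.0032 for all genes tested.

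Ccl11 had 18, 30 and 26 counts in CT-26 hypothalamus and 5, 5 and 5 in controls. In TPM it was 0.81, 1.42 and 0.60 against 0.21, 0.19 and 0.23, with no overlap. The log2 fold change was 2.08 ± 0.41 (SE; 4.24-fold; adjusted p = 0.013). Without the CT-26 libraries Ccl11 would not have reached the minimum count, so its call follows in part from the filter. The adjusted p was 0.059 without control mouse 2, 0.19 when all 12 libraries shared a fit, and not assigned by DESeq2, which sets aside genes of low counts. CT-26 mouse 2 was highest for Ccl11 (1.08 CPM) and for the meningeal markers. In CT-26 mice 1 and 3 Ccl11 was at 0.644 and 0.496 CPM and the meningeal sums were 34.3 and 28.5 CPM. The control sums were 36.7 to 44.8 CPM. The part of the meninges in the Ccl11 result was not tested.

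Cx3cl1, the most abundant member, was at 93.1, 96.4 and 87.9 TPM in CT-26 hypothalamus and 98.3, 104.1 and 105.9 TPM in controls. All CT-26 libraries were below all controls. The difference was small, 261.3 ± 2.60 against 289.4 ± 10.3 CPM (SD, n = 3 each), and did not pass after adjustment (log2 fold change -0.15 ± 0.05, SE; adjusted p = 0.080). The sum of 5 neuron markers overlapped between the groups, at 3140 to 3275 CPM in CT-26 and 3120 to 3380 CPM in control libraries, and 1 of the 5, Tubb3, was lower (-0.28 ± 0.05, SE; adjusted p = 0.0091). All 4 oligodendrocyte markers were lower, with sums of 2092 to 2407 CPM in CT-26 and 3477 to 3904 CPM in controls. Their part in the Cx3cl1 values was not tested.

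Cxcl12, Cxcl14 and Cxcl16 overlapped between conditions in hypothalamus. Cxcl12 was at 6.33 to 10.6 TPM in CT-26 and 7.89 to 9.22 TPM in control libraries (log2 fold change -0.22 ± 0.12, SE; adjusted p = 0.27). Cxcl14 was at 30.5 to 34.3 against 30.8 to 35.0 TPM (log2 fold change 0.03 ± 0.07, SE; adjusted p = 0.80), the smallest standard error of any member but Cx3cl1 in this tissue. Cxcl16 was at 0.58 to 1.54 against 0.74 to 1.12 TPM (log2 fold change -0.02 ± 0.27, SE; adjusted p = 0.98).

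Of the other 5 members, Ccl7 was below detection in hypothalamus and Cxcl1, Cxcl10, Cxcl13 and Ccl2 were detected but below the testing minimum. Cxcl13 had 34, 5 and 32 counts in CT-26 mice 1, 2 and 3 and 0, 1 and 1 in controls. In CPM the order of the CT-26 mice was again 1 (1.22), 3 (0.610) and 2 (0.180), as in gastrocnemius. Cxcl1 had 10, 9 and 30 counts against 2, 3 and 0. Ccl2 had 4, 7 and 26 against 2, 1 and 1. For these 3 ligands every CT-26 library was above every control.

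Summed over the 3 libraries of a group and set against the summed library totals, the ratio of CT-26 to control was 30.4 for Cxcl13 (71 against 2 counts, 95% interval 8.10 to 255.6), 8.38 for Cxcl1 (49 against 5, 3.36 to 27.0) and 7.91 for Ccl2 (37 against 4, 2.84 to 30.6). Ccl7 had 12 against 3 counts (ratio 3.42, 0.923 to 18.9) and Cxcl10 had 27 against 13 (1.78, 0.886 to 3.75). These exact binomial intervals cover counting error only, not the spread between mice. When no minimum count was set, Cxcl13 (log2 fold change 4.70 ± 0.66, SE; adjusted p = 2.7e-09), Cxcl1 (2.91 ± 0.60, SE; adjusted p = 0.00011) and Ccl2 (2.77 ± 0.68, SE; adjusted p = 0.0019) were called along with Ccl11, and Ccl7 (adjusted p = 0.37) and Cxcl10 (adjusted p = 0.54) were not. The hypothalamic values of these genes thus passed or missed according to the minimum count.

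**Figure D4:**
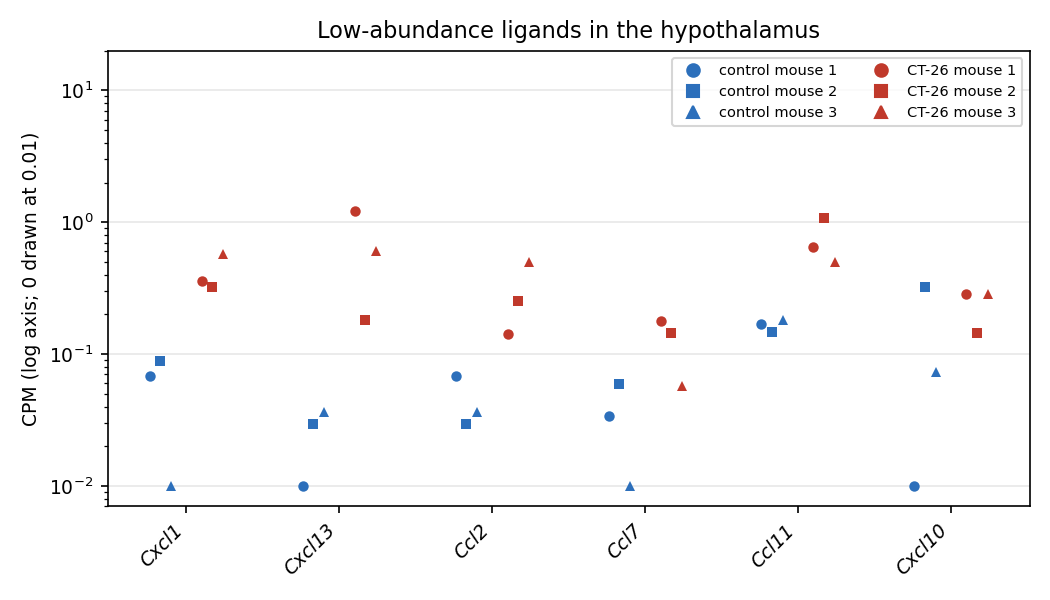
CPM of 6 low ligands in hypothalamus (log axis, 0 drawn at 0.01); each point is a library. CT-26 points of Cxcl1, Cxcl13, Ccl2 and Ccl11 all lie above the control points, while those of Ccl7 and Cxcl10 overlap them.

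The 3 neighbours on chromosome 11 can be read side by side. In hypothalamus their ratios of summed counts were 7.91 for Ccl2, 3.42 for Ccl7 and 4.22 for Ccl11 (2.40 to 7.92). In gastrocnemius they were 1.22 (0.881 to 1.69), 1.66 (1.01 to 2.79) and 0.850 (0.795 to 0.909), with the same limit on the intervals, and none of the 3 was called there. These ratios rest on library totals, not on the scaling of the edgeR fits. The fits gave 0.985-fold, 1.37-fold and 0.780-fold in gastrocnemius.

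The third comparison tested the difference itself, as the change in hypothalamus minus the change in gastrocnemius. Of the 9 members tested, 4 were called, beside 26.4% of 18746 genes, and Cxcl10 was not tested. Cxcl12 fell in muscle and was not called in brain, and the difference was 0.82 ± 0.19 (log2, SE; adjusted p = 0.0075); on log2(TPM + 0.5) it was 0.38 and not called (limma adjusted p = 0.25). Cxcl14 rose in muscle and was not called in brain (difference -0.71 ± 0.24, SE; adjusted p = 0.041). Ccl11 rose in brain and was not called in muscle (2.43 ± 0.68, SE; adjusted p = 0.019). Ccl2 also differed (2.77 ± 0.96, SE; adjusted p = 0.049), but with the mouse as a replicate block its adjusted p was 0.069. For Cxcl13, higher in CT-26 mice in both tissues by its libraries, the difference was -2.51 ± 5.72 (SE; adjusted p = 0.82). On log2(TPM + 0.5) it was -4.02 and passed (limma adjusted p = 0.018). Hypothalamic Cxcl13 was at 0.22 to 1.42 TPM in CT-26 and 0 to 0.04 TPM in control libraries. The added 0.5 shrinks its change there, so nothing is read from that pass. The 4 others were not called: Cxcl1 was at 1.96 ± 1.09 (SE; adjusted p = 0.21), and Cxcl16, Cx3cl1 and Ccl7 had adjusted p values of 0.43, 0.74 and 0.41. The calls were sensitive to single libraries: Cxcl12 was the call that remained in all 12 leave-one-out fits, and the Ccl11 call was lost without CT-26 mouse 2 or control mouse 2 of the hypothalamus (adjusted p = 0.053 and 0.054).

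Of 11 listed receptors of the 10 ligands, 6 passed the minimum count in gastrocnemius. There 3 were higher (Cxcr2, Ccr2, Ackr1) and 1 was lower (Ackr3), beside 19.6% and 18.3% of all genes. In hypothalamus 1 of 7 tested was higher (Cxcr2), beside 3.94%. Cxcr2, the neutrophil receptor for Cxcl1 and Cxcl5, had 221, 45 and 24 counts in CT-26 and 2, 0 and 2 in control gastrocnemius (log2 fold change 5.54 ± 0.97, SE; adjusted p = 0.0034). In hypothalamus it had 62, 30 and 39 counts against 0 in all 3 controls, at least 37.4-fold higher against a floor of 3 counts over the control group (adjusted p = 0.0033). In neither tissue would the control libraries of Cxcr2 alone have passed the minimum, so its calls follow in part from that filter. The neutrophil sums given above moved with it, and their part in the Cxcr2 result was not tested. Of the 8 neutrophil markers 6 were tested in each tissue (Camp and Ltf were not), and only Csf3r in hypothalamus was at a level in controls that would have passed by itself, so no count of their calls is read. Csf3r was not called there (adjusted p = 0.091). Ccr2, the monocyte receptor for Ccl2 and Ccl7, was at 2.37, 2.25 and 3.08 CPM in CT-26 gastrocnemius and 0.953 to 1.53 CPM in controls (log2 fold change 0.95 ± 0.26, SE; adjusted p = 0.021). Its adjusted p was 0.064 without CT-26 mouse 3 and 0.050 and 0.073 without control mouse 1 or 2. In hypothalamus Ccr2 was highest in CT-26 mouse 2 (1.87 CPM against 0.148 to 0.477 CPM in the other 5) and was not called (adjusted p = 0.14).

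Among atypical receptors, Ackr1, which carries inflammatory chemokines across venular endothelium, was at 295.9 ± 93.9 counts in CT-26 and 58.1 ± 7.97 counts in control gastrocnemius (SD, n = 3 each). The log2 fold change was 1.98 ± 0.16 (SE; adjusted p = 0.00023). The 6 endothelial markers summed to 120.1 to 145.6 CPM in CT-26 against 144.6 to 170.4 CPM in controls, which overlapped. Of the 6, 1 was higher (Cldn5) and 2 were lower (Cdh5 and Kdr), beside 19.6% and 18.3% of all genes. The part of endothelium in the Ackr1 result was not tested. In hypothalamus Ackr1 was not called (0.27 ± 0.08, SE; adjusted p = 0.073), but 361 of its 1405 exonic bases are shared with Cadm3 on the same strand, at a mean of 12830 counts or more there, so its level is uncertain. In gastrocnemius Cadm3 was at a mean of 214.1 counts in CT-26 and 305.2 in control libraries. Ackr3, the scavenger of Cxcl12, was lower in gastrocnemius (-0.64 ± 0.14, SE; adjusted p = 0.0083) and was not called on log2(TPM + 0.5) (limma adjusted p = 0.49) or with library totals (adjusted p = 0.058). In hypothalamus it was not called (-0.32 ± 0.10, SE; adjusted p = 0.087). Ackr2, the scavenger of CC chemokines, was not called in either tissue (adjusted p = 0.92 and 0.62).

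Cxcr4, the signalling receptor of Cxcl12, had log2 fold changes of -0.67 ± 0.26 in gastrocnemius and -0.52 ± 0.20 in hypothalamus (SE) and was not called in either (adjusted p = 0.076 and 0.15). Cx3cr1 was at 20.3 to 27.2 CPM in CT-26 and 24.3 to 24.9 CPM in control hypothalamus (adjusted p = 0.52) and was below the minimum in gastrocnemius. The remaining receptors, Cxcr3, Cxcr5, Cxcr6 and Ccr3, were below the minimum in both tissues. Cxcr5, the receptor of Cxcl13, was at 0.030 to 0.077 CPM in CT-26 gastrocnemius, and Ccr3, the receptor of Ccl11, had 0 counts in all 6 gastrocnemius libraries. Taken alone, a library with a count of 0 allows up to 3 counts, and for a group with 0 throughout the floor is 3 over the group, as for Cxcr2.

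**Figure D5:**
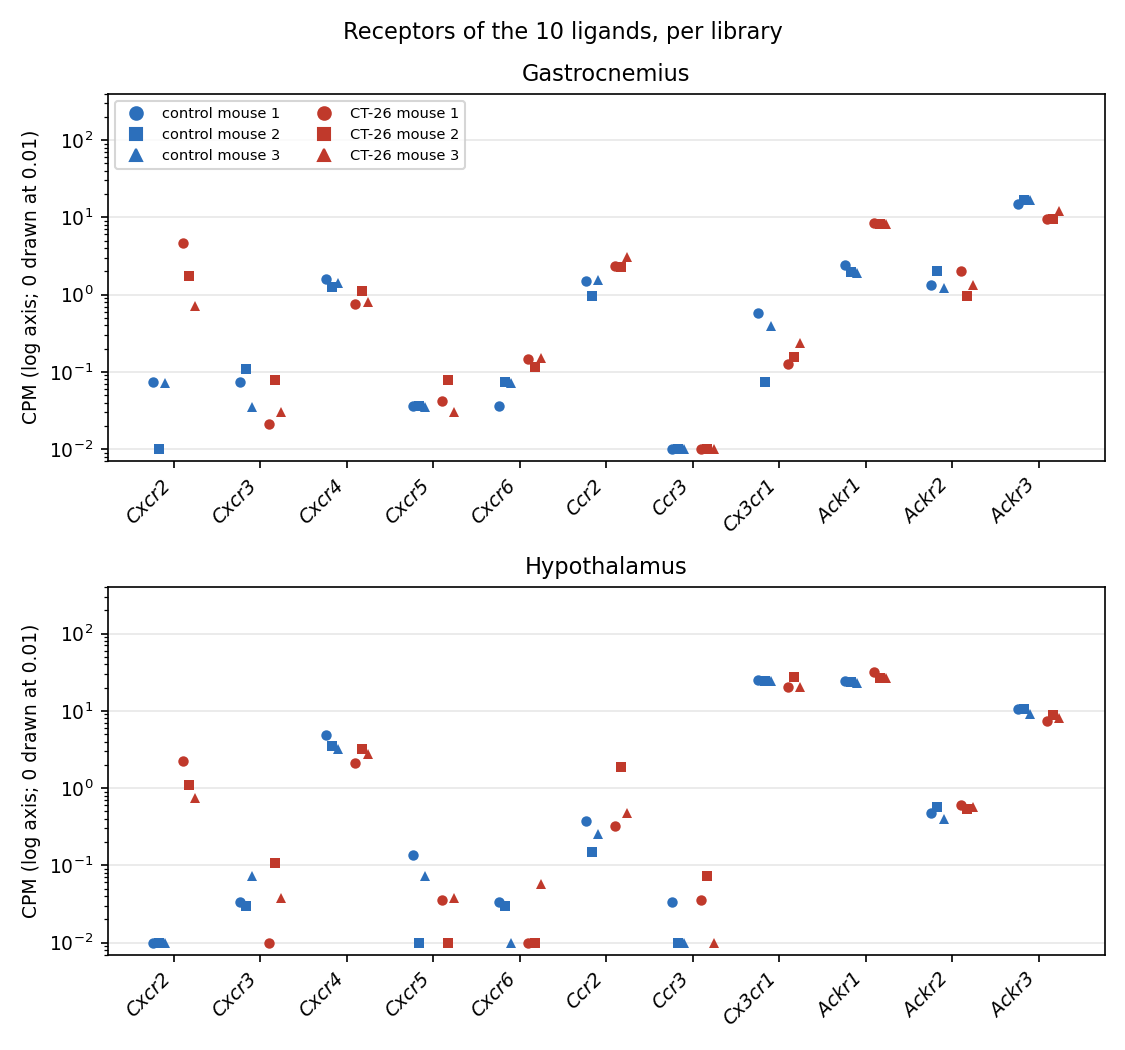
CPM of the 11 receptors (log axis, 0 drawn at 0.01) in gastrocnemius (top) and hypothalamus (bottom); each point is a library. Cxcr2 separates the conditions in both tissues, Ackr1 and Ccr2 lie above and Ackr3 below the controls in CT-26 gastrocnemius, and Cxcr3, Cxcr5, Cxcr6 and Ccr3 stay near the floor.

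Of 28 other listed chemokine ligands, 8 were tested in gastrocnemius, where 1 was higher and 1 lower, beside 19.6% and 18.3% of all genes. In hypothalamus 7 were tested and 2 were higher, beside 3.94% of all genes. Ccl6, a ligand of Ccr1, was higher in both tissues (log2 fold change 1.13 ± 0.32 and 1.31 ± 0.29, SE; adjusted p = 0.026 and 0.022). Each of these calls was lost in 5 of its 6 leave-one-out fits. In gastrocnemius its groups overlapped, CT-26 mouse 2 being at 7.51 CPM and the controls at 5.51 to 7.64 CPM. Cxcl5, a Cxcr2 ligand like Cxcl1, had 20, 21 and 54 counts against 12, 13 and 9 in hypothalamus (1.19 ± 0.28, SE; adjusted p = 0.027), and was not called by DESeq2 (adjusted p = 0.11). With 9 counts in control mouse 3, the controls of Cxcl5 alone would not have passed the minimum, so its call follows in part from the filter. Ccl21a, the lymphatic ligand of Ccr7, was lower in gastrocnemius (-2.08 ± 0.44, SE; adjusted p = 0.0076); it has near-identical gene copies, so reads could be split among them. Of 11 other chemokine receptors, 3 were tested in gastrocnemius and Ccr1 was higher (2.44 ± 0.51, SE; adjusted p = 0.0070), beside 19.6% of all genes. Its controls there had 8, 2 and 9 counts and would not have passed the minimum by themselves, so this call follows in part from the filter. In hypothalamus 6 were tested with 0 called by edgeR (1 at an unadjusted p below 0.05, Ccr1).

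Of 9 genes whose products cut or hold chemokines, all tested, 5 fell in gastrocnemius and 1 rose, with a median log2 fold change of -0.55 beside -0.0015 for all genes. Of all genes, 18.3% were lower and 19.6% higher, and the lower count of all genes fell from 2616 to 1662 with library totals and 1018 on log2(TPM + 0.5). Dpp4, the protease that clips and inactivates Cxcl12 and Cxcl10, was lower (-1.75 ± 0.25, SE; adjusted p = 0.0015), as were the heparan sulphate carrier Sdc2 (-1.09 ± 0.13, SE; adjusted p = 0.00081) and Adam17, a sheddase of Cx3cl1 (-0.81 ± 0.13, SE; adjusted p = 0.0023; limma adjusted p = 0.083 on log2(TPM + 0.5)). Mmp9, a protease of neutrophil granules, was higher (2.71 ± 0.62, SE; adjusted p = 0.011). Its control gastrocnemius libraries had 8, 11 and 14 counts and would not have passed the minimum by themselves, so the Mmp9 call follows in part from the filter. In hypothalamus 1 of 9 was called, Sdc4, which was higher (0.40 ± 0.08, SE; adjusted p = 0.012), beside 3.94% of all genes.

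Of 12 inducers and regulators of chemokine transcription, 7 were tested in each tissue, 4 being higher in gastrocnemius and 1 higher in hypothalamus, beside 19.6% and 3.94% of all genes. One of them in each tissue, Il1b, was tested only because of its CT-26 libraries. Il1b, the cytokine interleukin 1 beta, had 74, 23 and 28 counts against 1, 2 and 1 in gastrocnemius (4.42 ± 0.51, SE; adjusted p = 0.00066) and 20, 17 and 27 against 3, 5 and 1 in hypothalamus (2.56 ± 0.43, SE; adjusted p = 0.0059). Nfkbia, the inhibitor that NF-kB itself induces, and Rela, an NF-kB subunit, were higher in gastrocnemius (1.19 ± 0.21 and 0.72 ± 0.13, SE; adjusted p = 0.0033 and 0.0035). Nfkb1, another subunit, was at 26.4, 26.3 and 24.0 CPM in CT-26 gastrocnemius and 18.0 to 21.3 CPM in controls (0.36 ± 0.12, SE; adjusted p = 0.043), a call lost in 5 of its 6 leave-one-out fits, by DESeq2 and with no minimum count.

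The promoter table from RefSeq on GRCm38.p6 held 6 of the 10 members, and the 250 bases before each start were searched on both strands for the NF-kB site and an interferon element, since the list above holds NF-kB subunits and interferon regulatory factors. The NF-kB site matched in Cxcl1 and Cxcl10. The matches are shown on the gene strand with the site in capitals.
Cxcl1: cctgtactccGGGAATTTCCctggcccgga
Cxcl10, distal site: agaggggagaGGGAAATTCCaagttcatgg
Cxcl10, proximal site: tcggtttacaGGGGACTTCCctcgggttgc

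The Cxcl1 site began 71 bases before the start (chr5:90891164-90891193, plus strand), and those of Cxcl10 159 bases (chr5:92349029-92349058, minus strand) and 104 bases before it (chr5:92348974-92349003, minus strand). A second match overlapped the Cxcl1 site and the proximal Cxcl10 site by all but 1 base. The interferon element, searched as GAAA, any 2 bases, GAAA, matched once each in Cxcl10 and Cxcl14. Cxcl12, Cxcl13 and Cx3cl1 held neither motif in this window. Of 32851 promoters of this length, 7.25% held the NF-kB motif and 2.98% the interferon element, so the matches describe these letters only.

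For each called member, the 2 protein-coding genes with the most similar pattern over the 12 libraries were found by the root mean square difference of centred log2(TPM + 0.5) among 12381 genes tested in both tissues. For Cxcl13 they were Cebpd (difference 0.770), a transcription factor of acute inflammation, and Tfdp2 (0.999), against a median of 2.64 over all genes. Cebpd was at 120.5, 59.4 and 88.5 TPM in CT-26 gastrocnemius and 3.70, 2.49 and 2.97 TPM in controls. Its CT-26 mice were in the order 1, 3, 2 as for Cxcl13. Cebpd was picked by its likeness to Cxcl13 in these same libraries, so nothing is read from the shared order. For Cxcl12 they were Tmem64 (0.135) and Tmem143 (0.155), against a median of 1.07. For Cxcl14 they were D8Ertd738e (0.126) and Gtf2a2 (0.154), against 0.916. For Ccl11 they were Mlip (0.374) and Pfkfb1 (0.392), against 2.79, and neither was called in hypothalamus, unlike Ccl11 (adjusted p = 0.72 and 0.13).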

How the data were processed

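The submitters' processing notes name STAR 2.7.9a, RSEM 1.3.3, Trim Galore 0.6.6 and build GRCm38; the annotation release and strand setting are not given in the sources used here. The deposited tables hold RSEM expected counts, which are estimates and can be fractional, and TPM values, which the authors' RSEM run scaled by effective length and library. Names came from GENCODE M21 (52135 of 55416 identifiers, 99.648% of counts).

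Expected counts were rounded and tested per tissue with edgeR 4.0.16 in R 4.3.3 (filterByExpr, TMM, glmQLFit and glmQLFTest, Benjamini-Hochberg over all genes), and the difference between tissues as an interaction over 12 libraries. CPM is counts per 1e6 after TMM scaling. Standard errors come from the test statistic. Alternatives used DESeq2 1.42.0, library totals, no minimum count, limma 3.58.1 on log2(TPM + 0.5), a replicate block, a shared fit and leaving out each library; TPM without short genes was added after seeing the data. Fits were tested on simulated counts. No replicates agreed within sampling noise (lowest chi-square per gene 6.31).

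The members, lists and tests were chosen with earlier results of these data known. Named genes are all members and their 11 receptors, up to 4 called genes per other list and tissue by smallest p, and the 2 genes nearest each called member; the genes of the overlaps were named after their values were seen. Some listed genes are not reported here, and counts of their lists leave them out. Tissues of a numbered mouse were paired by animal; CT-26 and control mice of a number were not (correlations of deviations -0.121 to 0.315).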

Additional observations from a re-analysis of the deposited data

Results flagged for a closer look

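Changes under the tumour differed between the tissues for 12 of the 29 named genes that could be tested, by the interaction test of edgeR with adjustment over 18746 genes, beside 26.4% of all genes. Named genes were partly chosen for their change within a tissue, so nothing is read from that share. The values are the log2 change in hypothalamus minus that in gastrocnemius. Among the ligands these were Cxcl12 at 0.82, Cxcl14 at -0.71, Ccl2 at 2.77 and Ccl11 at 2.43. Among the other genes, Ackr1 was at -1.69, Ccl21a at 5.92, Sdc2 at 0.95, Dpp4 at 1.83, Adam17 at 0.60, Mmp9 at -2.32, Rela at -0.66 and Nfkb1 at -0.42. Adjusted p values ran from 2.603e-05 for Ackr1 to 0.049 for Ccl2. Ackr1 shares 361 of its 1405 exonic bases with Cadm3 on the same strand, so its level, above all in hypothalamus, is uncertain. Ccl21a had 0, 14.9 and 9 counts in CT-26 hypothalamus and 0, 0 and 1 in controls, so its hypothalamic part rests on 2 libraries.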

How the results depend on the processing

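In gastrocnemius 3 members were called, as under DESeq2, library totals, no minimum count, TPM and a shared fit; leaving out a library gave 2 to 4, and the replicate block gave 4, adding Ccl11 as lower (-0.37, adjusted p = 0.037). Same-numbered CT-26 and control mice share only a number. In hypothalamus 1 was called; DESeq2 and the shared fit of all 12 libraries gave 0, no minimum count gave 4, the replicate block gave 1, and leaving out a library gave 1 to 3. In the difference between tissues 4 were called, 3 with the mouse as replicate block, and 1 to 5 without single libraries; the 1 was without CT-26 or control mouse 2 of the hypothalamus. The cause was not tested.

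Among the genes named here, signs that reversed all belonged to uncalled values. Gastrocnemius Ccl2 (-0.02) was 0.197 with library totals, 0.004 with no minimum count, 0.244 on TPM and 0.22 on TPM without short genes, and ran from -0.556 to 0.479 without single libraries. Gastrocnemius Ccl11 was 0.005 on TPM. Ackr2 in gastrocnemius was 0.164 with library totals and 0.147 and 0.129 on TPM with and without short genes, and -0.391 to 0.205 without single libraries; in hypothalamus it was -0.018 and -0.01 on the same TPM scales. Hypothalamus Cxcl14 was -0.01 on TPM and -0.031 to 0.113 without single libraries. Hypothalamus Cxcl16 was 0.001 with DESeq2, 0.013 with library totals, 0.008 on TPM without short genes, and -0.329 to 0.166 without single libraries. The difference between tissues was -0.019 for Ccl7 on TPM and ran from -0.009 to 1.099 for Cx3cl1. Low counts limited Cxcl1, Cxcl10, Cxcl13, Ccl2 and Ccl7 in hypothalamus.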
